A study of Mus musculus with 3 samples.

Results

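The 10 genes described here encode enzymes that make or remove reactive oxygen species in the vessel wall. They were chosen by symbol from the 32285 genes of the files, with earlier results of these data known. Nox4, Cybb and Cyba are NADPH oxidase subunits, Hmox1, Nqo1, Gclm, Srxn1 and Txnrd1 are targets of the transcription factor Nrf2 (Hmox1 also degrades heme), and Sod3 and Gpx3 are secreted antioxidant enzymes. Each was read as unique molecular identifiers (UMIs) in single cells of the aorta from male gene replacement mice, which carry human APOE2, APOE3 or APOE4 at the locus of the replaced mouse gene and were backcrossed to C57BL/6J. All mice were 12 weeks old when a Western diet with 42% fat and 0.2% cholesterol began, and they were fed it for 16 weeks. The aorta was taken from the arch to the iliac bifurcation, trimmed of fat and digested with enzymes, and the cells of all mice of a genotype (6 with APOE2, 5 with APOE3 and 7 with APOE4) went into 1 library. With 1 library per genotype no test between genotypes is possible, and differences between pools, between digestions and between genotypes cannot be told apart. Values given as a row of 3 are in the order APOE2, APOE3 and APOE4. Intervals in the text are exact 95% intervals and cover counting error only.

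NADPH oxidases pass electrons from NADPH to oxygen. Cybb encodes NOX2, the phagocyte enzyme of the respiratory burst, Nox4 encodes an oxidase of vascular cells that mainly releases hydrogen peroxide, and Cyba encodes p22phox, the membrane partner that both need. Nrf2, held down by Keap1 until oxidants or electrophiles appear, raises a set of genes that make glutathione, reduce thioredoxin and peroxiredoxins, reduce quinones and degrade heme. Superoxide dismutase 3 is bound to the matrix of the arterial wall, where it removes extracellular superoxide, and glutathione peroxidase 3 reduces hydroperoxides in plasma and extracellular fluid.

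After removal of cells under 200 genes or with 20% or more mitochondrial UMIs, 11772 APOE2, 6737 APOE3 and 8248 APOE4 cells remained, with 168310501, 125105151 and 124926887 UMIs and a median of 12047, 17618 and 13521.5 UMIs per cell. They formed 24 clusters, named from marker genes and without the 10 genes or their pathway lists among the clustering features. Smooth muscle-like cells made up 7733, 4443 and 5631 cells, fibroblast-like cells 1182, 659 and 971, macrophage-like cells 401, 125 and 170, and endothelial-like cells 144, 33 and 40. Neutrophil-like cells numbered 129, 32 and 14, T lymphocyte-like cells 126, 21 and 117, and B lymphocyte-like cells 36, 11 and 265. Cluster 12, led by Spp1, Vcam1, Lcn2, Timp1 and Chad, was left unnamed and held 350, 158 and 155 cells. The smooth muscle-like clusters were led by genes such as Myh11, Acta2 and Fbxl22, the macrophage-like cluster by Lyz2, C1qa and C1qb, and the endothelial-like cluster by Egfl7, Cldn5 and Vwf. The libraries shared 26 (APOE2 and APOE3), 27 (APOE2 and APOE4) and 14 (APOE3 and APOE4) cell barcodes. Scrublet called 1, 0 and 2 doublets, a share too low for the caller to have worked, so doublets remain in the classes. UMIs were assigned to mouse Apoe in all 3 libraries, at 191, 200.1 and 181 CPM (UMIs of the gene in 1000000 UMIs), so the replaced gene does not separate the genotypes and gives no check of the labels; the source of these UMIs was not tested.

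Promoter stretches are shown for the 3 Nrf2 targets among the members whose window held a letter match to TGACNNNGC, a binding motif of that pathway. For Srxn1 this match lies outside the printed stretch, and the capitals there mark TGAGTCA only. Gclm lies on chromosome 3 at 122245557 to 122270732, Srxn1 on chromosome 2 at 152105516 to 152111376 and Txnrd1 on chromosome 10 at 82833951 to 82897712, all on the plus strand of GRCm38. Each line gives the 250 bases before the RefSeq start (GRCm38.p6), 5′ to 3′, and capitals mark matches on either strand to TGACNNNGC, the core of the antioxidant response element, or to TGAGTCA, a site of AP-1 and related factors.
Gclm (chr3:122245307-122245556, plus strand): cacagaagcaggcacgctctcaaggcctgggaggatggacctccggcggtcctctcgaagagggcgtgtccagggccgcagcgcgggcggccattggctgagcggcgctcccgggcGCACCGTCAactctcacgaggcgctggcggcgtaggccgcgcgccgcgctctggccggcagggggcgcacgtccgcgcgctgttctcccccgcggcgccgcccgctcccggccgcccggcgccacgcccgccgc
Srxn1 (chr2:152105274-152105523, plus strand): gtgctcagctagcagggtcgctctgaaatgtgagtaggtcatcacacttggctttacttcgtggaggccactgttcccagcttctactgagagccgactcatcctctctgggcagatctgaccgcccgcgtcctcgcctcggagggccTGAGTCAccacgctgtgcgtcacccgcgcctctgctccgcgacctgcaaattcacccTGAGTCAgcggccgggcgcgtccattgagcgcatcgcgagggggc
Txnrd1 (chr10:82858956-82859205, plus strand, the second of its 3 windows): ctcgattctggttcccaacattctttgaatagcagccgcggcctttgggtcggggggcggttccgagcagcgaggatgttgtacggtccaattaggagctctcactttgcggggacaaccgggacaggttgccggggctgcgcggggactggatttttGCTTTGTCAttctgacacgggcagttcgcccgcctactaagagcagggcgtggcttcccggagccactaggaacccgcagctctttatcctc

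Of the other members, Nox4 lies on chromosome 7 at 87246096 to 87398710, Sod3 on chromosome 5 at 52363791 to 52371418, Gpx3 on chromosome 11 at 54902453 to 54910377 and Hmox1 on chromosome 8 at 75093621 to 75100589, on the plus strand. Nqo1 lies on chromosome 8 at 107388225 to 107403206, Cyba on chromosome 8 at 122424776 to 122432930 and Cybb on chromosome X at 9435252 to 9487771, on the minus strand. Windows were found for 8 of the 10 genes; Hmox1 and Sod3 had none. Gclm held 1 match to TGACNNNGC at position -134 from its start, and Txnrd1 held 1 at -92. Srxn1 held 2 matches to TGAGTCA in the printed stretch and 1 to TGACNNNGC at position 28 after the start, outside it. Over all 32851 windows, TGACNNNGC matched 12.4% and TGAGTCA 5.20%. The 2 motifs share letters and can overlap at the same site. These letters were not found in the windows of Nqo1, Cyba, Cybb, Nox4 and Gpx3. The windows of Cybb (9469275 to 9469574), Nox4 (87246399 to 87246698) and Gpx3 (54902604 to 54902903) lie inside the genes as placed above. The bases before position 9487771 for Cybb, 87246096 for Nox4 and 54902453 for Gpx3 were therefore not searched. A match is a match of letters and not a measured binding site.

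Levels are given as CPM, here the UMIs of a gene in 1000000 UMIs of that cell class in that library, and the classes are ordered by the median of the 3 libraries. Classes are said to overlap where the ranges of their 3 library values do, without regard to counting intervals. Cybb, Cyba and Hmox1 were highest in macrophage-like cells, Nox4, Sod3 and Nqo1 were high in smooth muscle-like cells or in cluster 12 beside them, and Gpx3 was highest in fibroblast-like cells. Gclm, Srxn1 and Txnrd1 were spread over most classes.

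**Figure D1:**
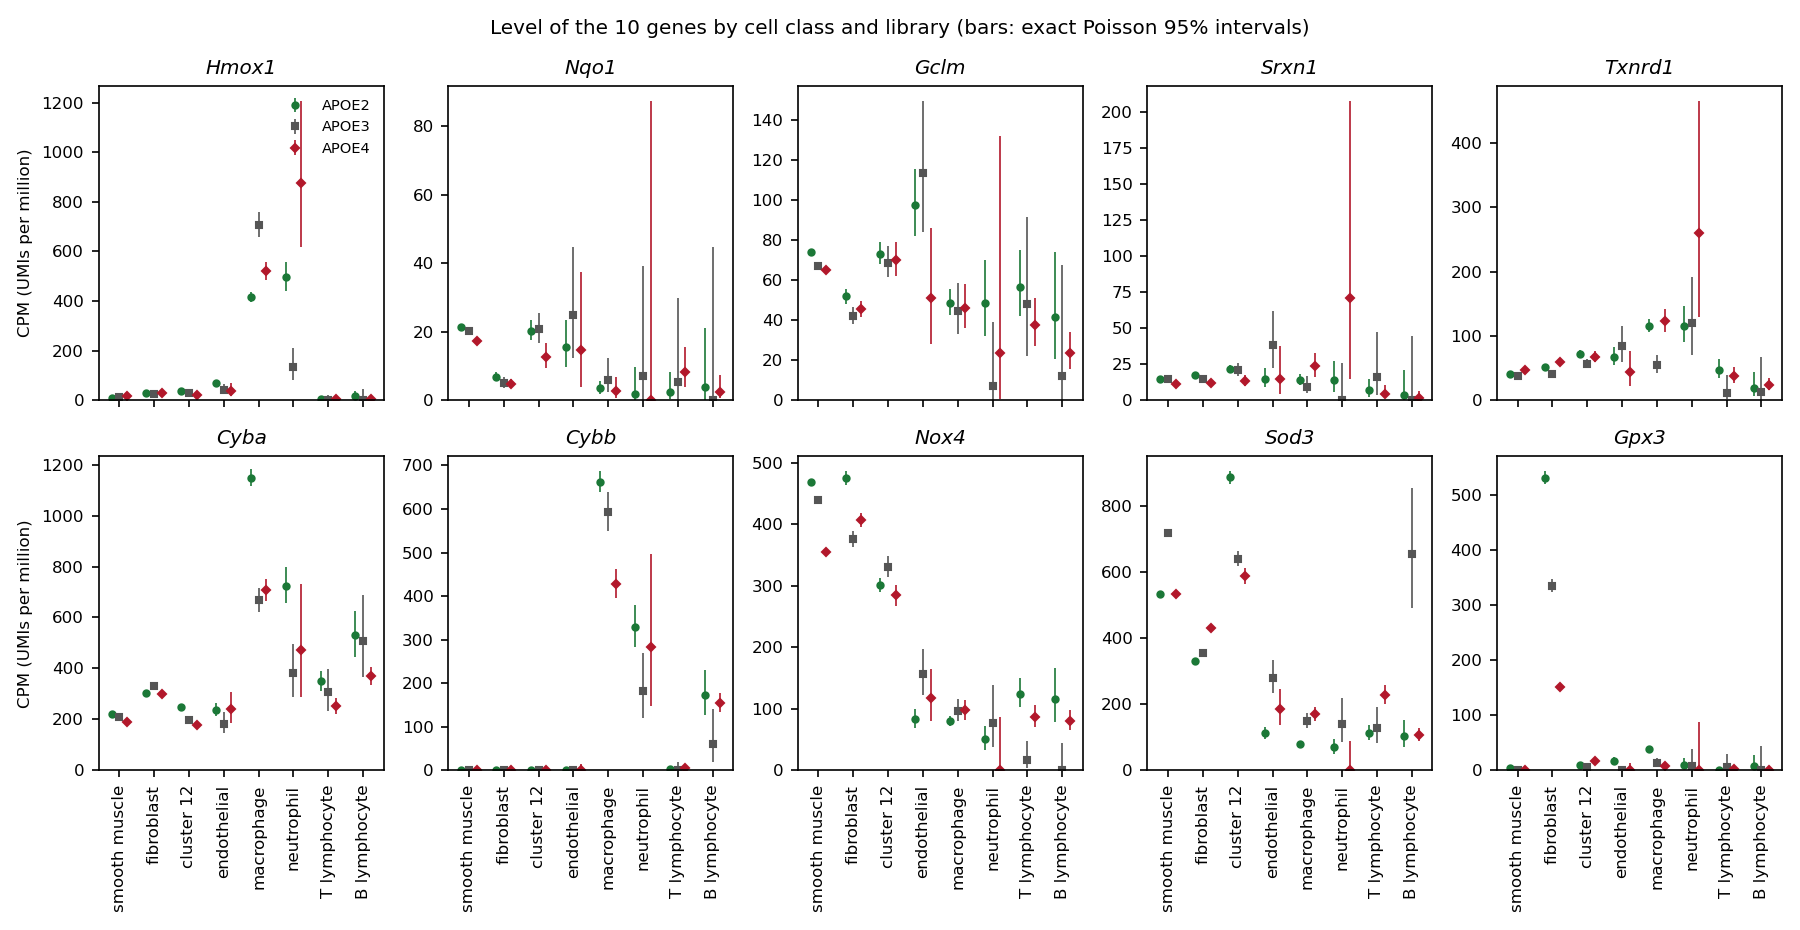
Each panel plots 1 gene, with cell classes on the x axis and the level in CPM on a linear y axis; points are the APOE2, APOE3 and APOE4 libraries and bars are exact Poisson 95% intervals. Cybb and Cyba are highest in macrophage-like cells, Gpx3 stands at 532, 336 and 151 CPM in fibroblast-like cells and at most 38.5 CPM in the other classes, and the wide bars belong to classes with few cells.

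Among the oxidase subunits, Cybb, the catalytic subunit of the phagocyte oxidase, was at 662 (638 to 687), 593 (550 to 639) and 429 (397 to 463) CPM in the APOE2, APOE3 and APOE4 macrophage-like cells. Neutrophil-like cells followed at 329, 183 and 284 CPM and B lymphocyte-like cells at 173, 60.6 and 155 CPM. The range of the 3 library values of each did not overlap that of the class above it. Counting intervals were not compared, and as few as 14 neutrophil-like and 11 B lymphocyte-like cells stand behind a value. Cybb was near 0 outside immune cells, at 0.25, 0.10 and 0.09 CPM in smooth muscle-like cells. It had 0 UMIs in all endothelial-like cells, which allows up to 2.10, 6.80 and 11.0 CPM in the 3 libraries by a floor of 3 UMIs. After each cell was thinned to 1000 UMIs, which left out 29, 14 and 23 shallower macrophage-like cells, 45.4%, 44.1% and 30.6% of macrophage-like cells held a Cybb UMI. The APOE4 interval of 23.3 to 38.7% lay below the APOE2 interval of 40.3 to 50.6%, but it overlapped the APOE3 interval. In smooth muscle-like cells, which should lack the gene, the thinned shares were 0.0401%, 0.0228% and 0%, with 255, 49 and 89 cells left out. The median depth was 8523, 8193 and 7421.5 UMIs in macrophage-like and 13208, 19570 and 15114 UMIs in smooth muscle-like cells, so the macrophage shares lay far above that background.

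Cyba, encoding p22phox, was detected in every class, with medians from 197 CPM in cluster 12 to 707 CPM in macrophage-like cells. In macrophage-like cells it was at 1149 (1118 to 1182), 667 (621 to 716) and 707 (665 to 750) CPM, so the APOE2 library stood apart from the other two. B lymphocyte-like cells, at 370.2 to 531 CPM, came next and overlapped with neutrophil-like cells at 380 to 724 CPM. T lymphocyte-like, fibroblast-like, endothelial-like, smooth muscle-like cells and cluster 12 followed, and smooth muscle-like cells held 221, 209 and 190 CPM.

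Nox4 had the converse distribution. Smooth muscle-like cells held 469 (465 to 473), 439 (435 to 444) and 355 (351 to 359) CPM and fibroblast-like cells 475, 376 and 407 CPM, and the 2 classes overlapped. Cluster 12 was lower, at 301, 331 and 284 CPM. Macrophage-like cells held 79.5, 96.5 and 97.5 CPM, beside smooth muscle marker UMIs that are given with the genotype comparison, and T lymphocyte-like cells held 125, 16.1 and 87.0 CPM. The phagocyte oxidase cofactor Ncf1, like Cybb, was higher in macrophage-like than in smooth muscle-like cells, at 119, 77.7 and 89.0 CPM against 0.1, 0.1 and 0.2 CPM. Nox1, another vascular catalytic subunit, reached 0.6, 0.5 and 1.0 CPM in smooth muscle-like cells.

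Hmox1, encoding heme oxygenase 1, which splits heme into biliverdin, iron and carbon monoxide, was a gene of macrophage-like and neutrophil-like cells. The macrophage-like cells held 417 (398 to 436), 707 (660 to 757) and 522 (486 to 559) CPM, highest in the APOE3 library, and the 3 intervals did not overlap. Neutrophil-like cells held 495, 134 and 876 CPM from 286, 19 and 37 UMIs, a range that covered the macrophage levels. Endothelial-like cells at 36.5 to 68.1 CPM, cluster 12 at 19.4 to 37.3 CPM and fibroblast-like cells at 23.4 to 27.6 CPM overlapped each other in turn. Smooth muscle-like cells were lower, at 10.1, 13.1 and 16.4 CPM, and lymphocyte-like cells held at most 15.1 CPM.

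Nqo1, encoding a quinone reductase that uses NADH or NADPH, was at 21.4, 20.2 and 17.2 CPM in smooth muscle-like cells and at 20.3, 20.7 and 12.6 CPM in cluster 12. Endothelial-like cells, at 14.6 to 24.9 CPM, overlapped both. Fibroblast-like cells held 6.77, 4.94 and 4.78 CPM and macrophage-like cells 3.46, 5.98 and 2.60 CPM from 15, 7 and 4 UMIs. In macrophage-like cells Nqo1 was therefore near its lowest level, where Hmox1 was at its highest.

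Gclm, the modifier subunit of the enzyme that limits glutathione synthesis, was found in every class, with medians from 23.4 CPM in B lymphocyte-like to 97.5 CPM in endothelial-like cells. Smooth muscle-like cells held 73.9, 66.9 and 64.8 CPM, cluster 12 held 73.2, 68.7 and 70.1 CPM, fibroblast-like cells 51.8, 42.1 and 45.4 CPM and macrophage-like cells 48.7, 44.4 and 46.1 CPM. Endothelial-like cells were at 97.5, 113 and 51.1 CPM and overlapped the next classes.

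Srxn1, which reactivates overoxidised peroxiredoxins, had its highest median in cluster 12, at 21.5, 21.1 and 13.1 CPM, but other classes overlapped it. Endothelial-like cells held 14.7, 38.5 and 14.6 CPM from 21, 17 and 4 UMIs, and neutrophil-like cells ranged from 0 to 71.0 CPM. Fibroblast-like (17.3, 14.8 and 11.8 CPM), smooth muscle-like (14.5, 14.5 and 11.5 CPM) and macrophage-like cells (13.8, 9.40 and 23.4 CPM) lay close together. Txnrd1, the cytosolic thioredoxin reductase, had its highest medians in neutrophil-like cells at 116, 120 and 260 CPM and in macrophage-like cells at 115, 54.7 and 123 CPM. The medians of these classes were 1.04-fold apart. All its neighbouring classes overlapped, down to smooth muscle-like cells at 41.2, 37.7 and 46.8 CPM.

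Sod3, the extracellular superoxide dismutase, was at 888, 641 and 589 CPM in cluster 12 and at 533 (528 to 537), 720.0 (714 to 725) and 535 (530 to 539) CPM in smooth muscle-like cells, and these classes overlapped. Fibroblast-like cells held 331, 354 and 432 CPM. The APOE3 value in B lymphocyte-like cells, 655 CPM, came from 54 UMIs in 11 cells, against 105 and 107 CPM in the other libraries.

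Gpx3, the plasma glutathione peroxidase, was found mainly in 1 class. Fibroblast-like cells held 532 (520 to 544), 336 (324 to 348) and 151 (144 to 159) CPM, highest in APOE2 and lowest in APOE4 with no overlap of intervals. The median in fibroblast-like cells was 24.6 times that in macrophage-like cells, which came next at 38.5, 13.7 and 8.45 CPM. Smooth muscle-like cells held 4.07, 0.51 and 0.52 CPM from 448, 47 and 50 UMIs.

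Genes with the most similar level pattern were sought over 12 points, the smooth muscle-like, fibroblast-like, macrophage-like and endothelial-like classes in the 3 libraries, among 5655 genes that reached 50 CPM in any point, by Pearson's r of log2(CPM + 1). The points share libraries and depth, so r is a description. Cybb was closest to Ms4a6b, C5ar1 and Cd300a (r = 1.00 for each), Hmox1 to Il10rb, Lyn and Atp2b1 (r = 0.99, 0.99 and 0.98) and Cyba to Cmtm7, Rnpep and Tmem106a (r = 0.97 for each). Nox4 was closest to Prdm6 and Arhgef25 (r = 0.97 for both) and Ogn (r = 0.96), Sod3 to Kank2 (r = 0.98), Fhl1 and Fzd2 (r = 0.97 for both), and Gpx3 to C3 (r = 0.98), Olfml3 and Dpt (r = 0.96 for both). The genes closest to Nqo1 were Atp8b1, Cops6 and Psmb3, those closest to Gclm were Pfdn2, Eif1 and Mrpl24, those closest to Srxn1 were Nop14, Secisbp2l and Taf15, and those closest to Txnrd1 were Sf1, Ppp2r5c and Eif4a1 (r from 0.88 to 0.97 over these 12 genes).

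The genotype libraries were then compared within each class, APOE2 to APOE3 and APOE4 to APOE3. Both ratios use the same APOE3 library, so they are not independent. A gene was counted as measured where the 2 libraries together held at least 50 UMIs in the class, and as past the threshold where the CPM differed by 1.5-fold or more in either direction. Log2 ratios are of CPM.

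**Figure D2:**
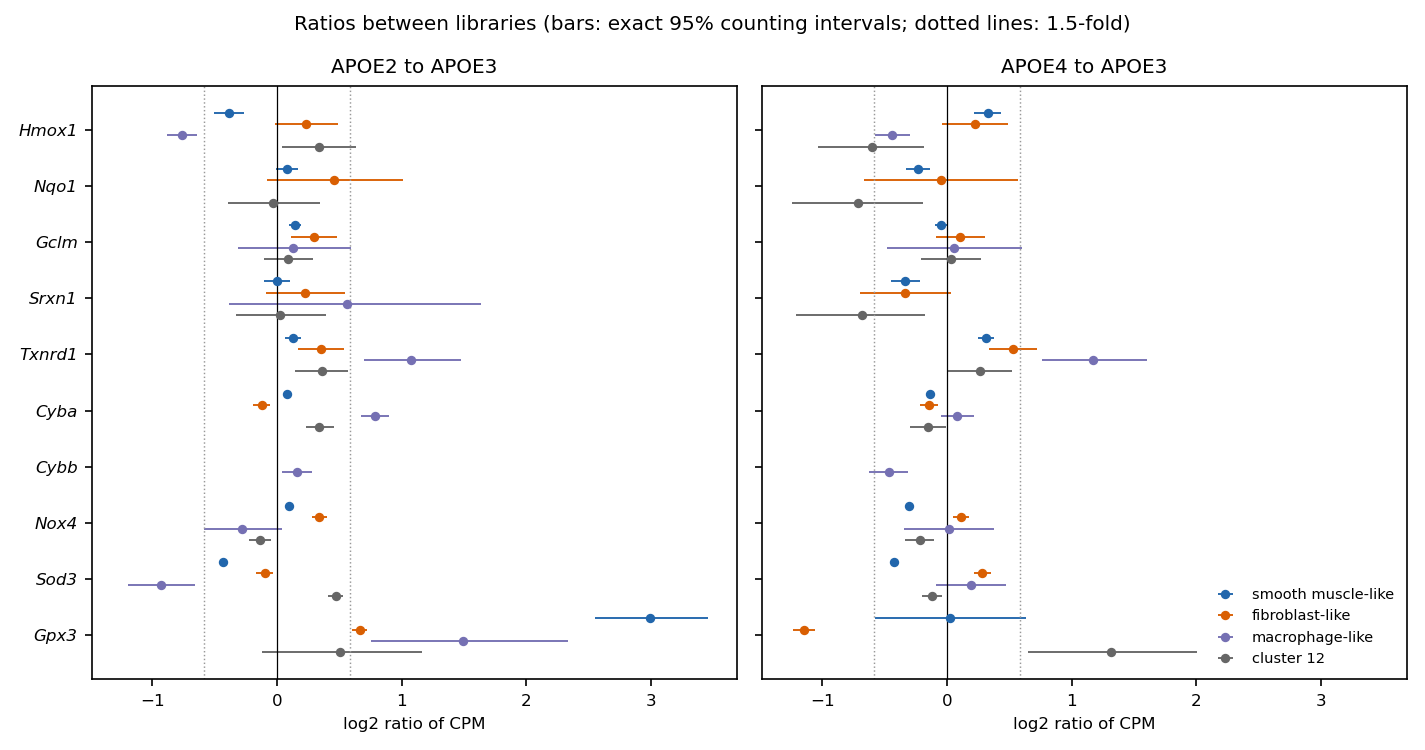
The x axis is the log2 ratio of CPM between libraries, APOE2 to APOE3 on the left and APOE4 to APOE3 on the right, for the 10 genes on the y axis; colours are 4 cell classes, bars are exact 95% counting intervals, dotted lines mark 1.5-fold, and pairs that were not measured are left out. Gpx3 lies at 2.99 in smooth muscle-like cells for APOE2 and at -1.15 in fibroblast-like cells for APOE4, and Txnrd1 in macrophage-like cells lies past the right line in both panels.

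In smooth muscle-like cells most members differed little. Gpx3 alone passed 1.5-fold for APOE2 to APOE3, 1 of 9 measured members against 11.4% of all measured genes, and for APOE4 to APOE3 0 of 9 did, against 11.1%. Gpx3 was 7.95-fold higher in APOE2 (log2 ratio 2.99, 2.56 to 3.46). Of the 448 UMIs behind the APOE2 value, 249 came from cluster 2, led by Tnnt2, Npy1r and Des, which made up 22.8%, 8.06% and 5.91% of the smooth muscle-like cells of the 3 libraries. Without cluster 2 the log2 ratio was 2.25, and over all clusters that keep the smooth muscle markers it was 1.42. Fibroblast markers, with 10 of 10 detected in each library and Col1a2 highest, summed to 887, 1175 and 1110 CPM in these cells. Other lists were highest in APOE2 like Gpx3. Macrophage markers, 10 of 10 detected in each library, were at 18.9, 4.05 and 7.63 CPM. Erythroid markers were at 207, 12.6 and 52.9 CPM and cardiac or skeletal muscle markers at 242, 90.5 and 46.2 CPM. The part of all these lists, the fibroblast list included, in the Gpx3 difference was not tested.

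Sod3 was lower than in APOE3 in both other libraries, with a log2 ratio of -0.43 in each and intervals of -0.45 to -0.42 in APOE2 and -0.45 to -0.41 in APOE4. Among the 14 clusters that kept the smooth muscle markers and held at least 30 cells in each library, 9 of them smooth muscle-like and 5 unnamed, APOE3 was the highest of the 3 libraries for Sod3 in 14. Nox4 in APOE4 was lower than in APOE3 by a log2 ratio of -0.31 (-0.33 to -0.29) and was lower in 12 of those 14 clusters, while the APOE2 ratio was 0.10 (0.08 to 0.11), with 7 of 14 clusters higher. The 14 clusters share the same 3 libraries and are not replicates, so these counts describe where a library difference lies. They were not made over all genes. Srxn1 and Nqo1 were at -0.34 (-0.45 to -0.22) and -0.23 (-0.33 to -0.14) for APOE4 to APOE3. Txnrd1 was at 0.31 (0.25 to 0.38), Cyba at -0.13 (-0.16 to -0.10) and Gclm at -0.05 (-0.10 to 0.01) for that ratio. All of these differences are within 1.5-fold. Over the settings run, Cyba for APOE4 to APOE3 ranged from -0.16 to -0.04 and Gclm from -0.05 to 0.05.

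Hmox1 in smooth muscle-like cells was at 10.1, 13.1 and 16.4 CPM, with log2 ratios against APOE3 of -0.38 (-0.50 to -0.26) in APOE2 and 0.33 (0.22 to 0.43) in APOE4. A list of immediate early and dissociation genes (Fos, Fosb, Jun, Junb, Egr1, Atf3, Ier2, Hspa1a, Hspa1b and Dnajb1) moved in the same order, with a summed 11224, 14398 and 19671 CPM in these cells. Over the 14 clusters, Hmox1 correlated with that list at r = 0.69, given as a description since clusters share libraries and depth; over the same clusters r ran from -0.28 for Sod3 to 0.35 for Txnrd1 among the other 9 members. The part of cell handling in the Hmox1 differences was not tested. The median percentage of mitochondrial UMIs also differed, at 2.31%, 1.53% and 2.91% in smooth muscle-like cells.

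**Figure D3:**
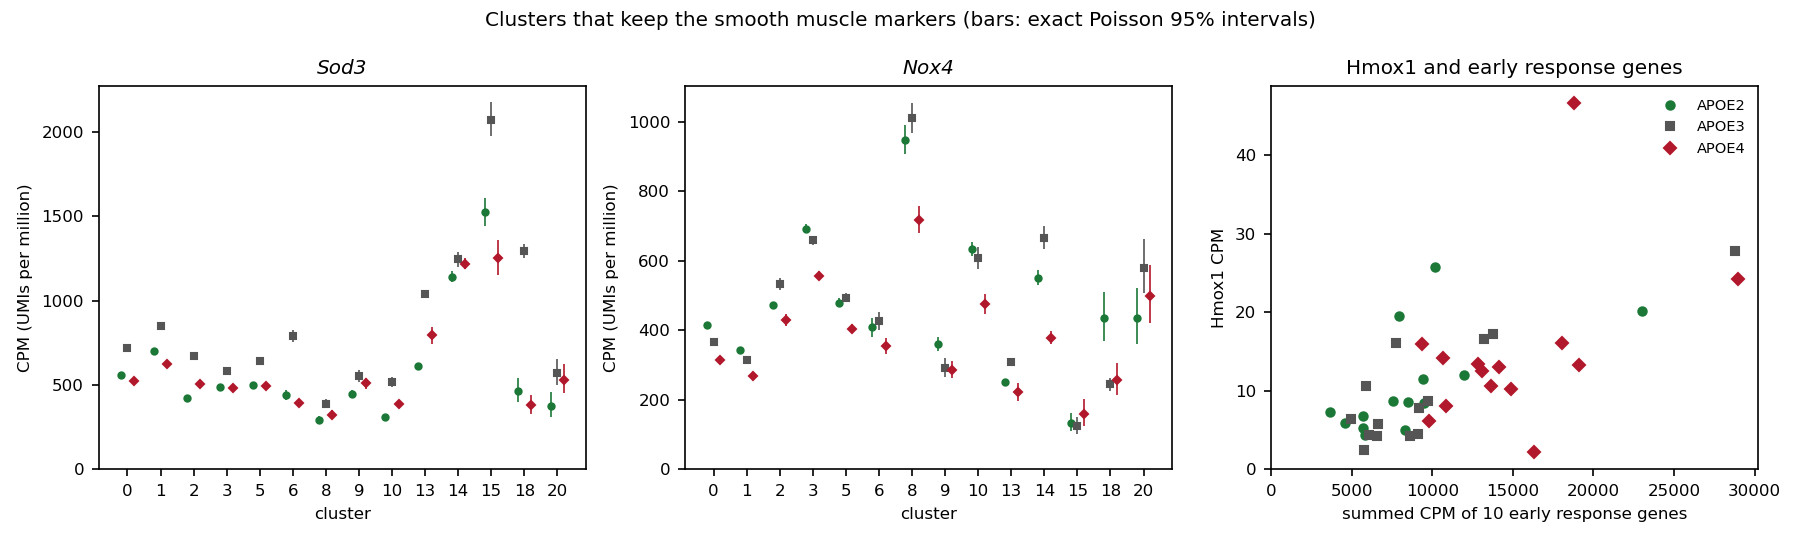
The first panels plot CPM by cluster for the clusters that keep the smooth muscle markers, with the 3 libraries as points and exact Poisson 95% intervals as bars; the last panel plots Hmox1 CPM against the summed CPM of 10 immediate early genes, 1 point per cluster and library. Sod3 is highest in APOE3 in 14 of 14 clusters, which share the 3 libraries and are not replicates. It peaks in cluster 15, and Nox4 peaks in cluster 8. Cluster 8 was left unnamed for its low depth with no smooth muscle marker among its 10 leading genes. The median depth was 4027 UMIs per cell in cluster 8 and 2814 in cluster 15.

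Nox4, Sod3, Hmox1 and Txnrd1 varied among the clusters that keep the smooth muscle markers. In the 9 clusters named smooth muscle-like, the median Nox4 level of the 3 libraries ranged from 134 CPM in cluster 15, led by Myl9 and Flna, to 659 CPM in cluster 3, led by Myh11 and Mylk4. Sod3 ranged from 386 CPM in cluster 10 to 1527 CPM in cluster 15, Hmox1 from 4.35 CPM in cluster 3 to 24.2 CPM in cluster 0, and Txnrd1 from 22.0 CPM in cluster 20 to 50.9 CPM in cluster 0. Wider extremes came from clusters left unnamed. Cluster 8, led by Thsd4 and Kcnab1 and of low depth, held 947 CPM of Nox4, 323 CPM of Sod3 and 79.2 CPM of Txnrd1. Cluster 13, in which 5 endothelial markers were raised, held 25.8 CPM of Hmox1. The named clusters 15 and 20 were shallower than cluster 8, at a median of 2814 and 2270 UMIs per cell against 4027. Gclm stayed within 1.53-fold over all 14 clusters, from 45.6 to 69.7 CPM.

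In fibroblast-like cells Gpx3 was again the 1 member past 1.5-fold, in both ratios and in opposite directions. For APOE2 to APOE3, 1 of 9 measured members passed, against 10.8% of all measured genes. For APOE4 to APOE3, 1 of 9 passed, against 10.4%. Gpx3 was 1.58-fold higher in APOE2 (log2 ratio 0.66, 0.60 to 0.73), and 0.45 times the APOE3 level in APOE4 (-1.15, -1.24 to -1.06). The order APOE2, APOE3, APOE4 was also seen within each fibroblast-like cluster, at 346, 230 and 146 CPM in cluster 4, led by Inmt, Fmod and Serpinf1, and at 673, 512 and 161 CPM in cluster 7, led by Opcml, Prg4 and Gfpt2. With the same mix of both clusters in each library, the APOE2 ratio was 0.48, within 1.5-fold. Cluster 9, which kept smooth muscle markers and held fibroblast markers too, had 279, 195 and 78.4 CPM. These clusters share the same libraries and are not replicates.

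The share of fibroblast-like cells with a Gpx3 UMI followed the level. At 1000 UMIs per cell it was 34.2% (31.5 to 37.0%), 24.1% (20.9 to 27.6%) and 11.9% (9.97 to 14.2%), and without thinning it was 74.0%, 61.9% and 39.3%, at median depths of 10640, 11309 and 9884 UMIs. Smooth muscle-like cells gave thinned shares of 0.294%, 0.114% and 0.0541% as background. Mesothelial markers, 6 of 6 detected in each library, summed to 75.4, 34.1 and 27.5 CPM in fibroblast-like cells in the same order as Gpx3, and smooth muscle markers to 4289, 5922 and 5183 CPM; their part in the Gpx3 difference was not tested. The adipocyte list was near 0, with 5, 2 and 5 of 6 markers detected and 1.2 to 4.0 CPM in sum. Lep was at 0 in all libraries, and Adipoq, Cidec and Ucp1 were at 0 in APOE3.

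**Figure D4:**
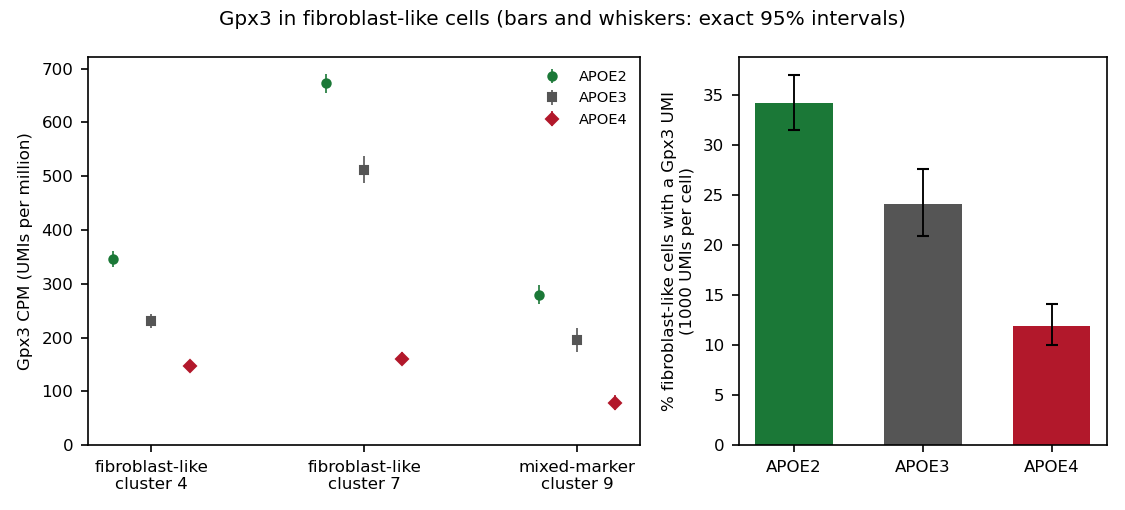
The left panel plots Gpx3 CPM in fibroblast-like clusters 4 and 7 and in cluster 9, which holds smooth muscle and fibroblast markers; the right panel plots the percentage of fibroblast-like cells with a Gpx3 UMI at 1000 UMIs per cell. Bars and whiskers are exact 95% intervals. In each cluster and in the share, APOE2 is highest and APOE4 lowest.

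Over the whole fibroblast-like class the other members stayed within 1.5-fold, but Nox4, Nqo1 and Txnrd1 passed it within a single cluster. Nox4 was higher in APOE2 than APOE3 by 0.34 (0.28 to 0.40) on the log2 scale, with 470, 309 and 378 CPM in cluster 4 and 479, 488 and 459 CPM in cluster 7. That difference lay in cluster 4, where it was 0.61 (0.52 to 0.69), past 1.5-fold. Sod3 was higher in APOE4 by 0.28 (0.22 to 0.35), the opposite sign to its smooth muscle difference. Txnrd1 was at 0.35 (0.17 to 0.54) for APOE2 and 0.53 (0.34 to 0.72) for APOE4, and Gclm at 0.30 (0.11 to 0.48) and 0.11 (-0.09 to 0.31). By cluster, Txnrd1 for APOE4 to APOE3 was at 1.04 (0.72 to 1.37) in cluster 7 and 0.22 (-0.02 to 0.46) in cluster 4. For Hmox1, Nqo1 and Srxn1 all intervals over the class included 0. In cluster 4, however, Nqo1 was at 0.79 (0.11 to 1.51) for APOE2 to APOE3, from 56 and 27 UMIs. Hmox1 there was at 0.44 (0.03 to 0.87) for APOE2 and 0.57 (0.17 to 0.98) for APOE4. In cluster 7 the Hmox1 and Nqo1 intervals included 0.

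Macrophage-like cells held the most members past the threshold among the 5 classes for APOE2 to APOE3. Here 5 of 9 measured members passed 1.5-fold, against 19.1% of all measured genes, with Cyba, Txnrd1 and Gpx3 higher and Hmox1 and Sod3 lower in APOE2. For APOE4 to APOE3, 1 of 7 passed, against 18.3%, and this was Txnrd1, higher in APOE4. These cells number 125 in APOE3, and 10 of 10 smooth muscle markers were detected in them in every library, with a summed 7287, 14245 and 12042 CPM and Acta2 highest. Immediate early genes summed to 18242, 28700 and 21842 CPM, the same order as Hmox1. Without the 44, 13 and 17 cells that held 100 or more smooth muscle marker UMIs, the APOE2 to APOE3 log2 ratios were -0.87 for Hmox1, 1.08 for Txnrd1, 0.73 for Cyba and 1.41 for Gpx3, all still past 1.5-fold. The part of cell handling was not tested.

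Hmox1 was lower in APOE2 by a log2 ratio of -0.76 (-0.88 to -0.64) and lower in APOE4 by -0.44 (-0.58 to -0.30), relative to APOE3. The thinned share of cells with a Hmox1 UMI was 25%, 36.9% and 34.0%, with intervals of 20.7 to 29.7%, 28.0 to 46.6% and 26.4 to 42.3%. Each of these intervals overlapped the others. Unthinned shares were 60.1%, 61.6% and 60.0%. T lymphocyte-like cells gave thinned shares of 0.820%, 0% and 0% as background, where 0 of 18 and 0 of 114 cells allow up to 16.7% and 2.63%.

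Cyba was 1.72-fold higher in APOE2 (0.78, 0.68 to 0.90) and close to APOE3 in APOE4 (0.08, -0.05 to 0.22). Cybb, its partner, was at 0.16 (0.04 to 0.28) for APOE2 and -0.47 (-0.62 to -0.31) for APOE4. Txnrd1 was 2.11-fold higher in APOE2 (1.08, 0.70 to 1.48) and 2.26-fold higher in APOE4 (1.18, 0.76 to 1.61), from 500, 64 and 190 UMIs. These ratios dropped to 0.46 and 0.31 when each cell's CPM was averaged with equal weight, so they depend on how cells are weighted. Under that weighting Cyba for APOE2 to APOE3 was also lower, at 0.43. Gpx3 was 2.82-fold higher in APOE2 from 167 and 16 UMIs (1.49, 0.75 to 2.33), and 0.55 with equal weight per cell. Fibroblast markers, 10 of 10 detected, summed to 458, 566 and 945 CPM in the 3 libraries and were not highest in APOE2, and their part in the Gpx3 ratio was not tested.

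Sod3 and Nox4 in macrophage-like cells depended on the cells with many smooth muscle marker UMIs. Sod3 was at 78.6, 149 and 171 CPM, with a log2 ratio of -0.93 (-1.19 to -0.66) for APOE2 to APOE3. When the cells with 100 or more smooth muscle marker UMIs were left out, the Sod3 ratios became -0.20 for APOE2 and 1.04 for APOE4. The Nox4 ratios moved from -0.28 and 0.01 to 2.13 and 1.15. For APOE4 to APOE3, Sod3 and Nox4 then held too few UMIs to count as measured, so no difference is read from 1.04 and 1.15. Under that exclusion the Hmox1 ratio for APOE4 to APOE3 was -0.58.

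The macrophage-like cells were divided by the share of their resident marker UMIs (Lyve1, Folr2, F13a1, Cbr2, Gas6 and Mrc1) in these and the foam cell marker UMIs (Spp1, Gpnmb, Fabp5, Trem2, Cd9 and Ctsd). A resident share of 75% or more held 161, 66 and 79 cells, a share of 25% or less, the foam range, held 103, 8 and 20 cells, and 105, 32 and 41 lay between; 32, 19 and 30 cells had under 5 UMIs on both lists. These are ranges of a score and not cell types, and 40 resident-range and 16 foam-range cells lay within 5 percentage points of their limit. In the resident range Hmox1 was at 823 (777 to 870), 1047 (964 to 1137) and 832 (765 to 903) CPM, and in the foam range it was at 166, 414 and 80.8 CPM from 241, 43 and 15 UMIs, so Hmox1 was lower in the foam range in each library. The APOE3 library was the highest in both ranges, although its foam range holds 8 cells. Smooth muscle markers summed to 2737, 1729 and 3161 CPM in the resident range and to 5000.3, 15727 and 9070 CPM in the foam range, and their part was not tested.

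Cyba was at 852, 698 and 783 CPM in the resident range and at 1858 (1789 to 1930), 837 (670 to 1032) and 824 (699 to 965) CPM in the foam range. The APOE2 excess of Cyba was thus larger in the foam range, to which 25.7% of APOE2 but 6.40% of APOE3 and 11.8% of APOE4 macrophage-like cells belonged. Cybb was at 718, 702 and 456 CPM in the resident range and 631, 635 and 485 CPM in the foam range, lowest in APOE4 in both, with overlapping intervals in the foam range. Txnrd1 was at 74.0, 50.9 and 94.1 CPM in the resident range and 196, 77.0 and 226 CPM in the foam range, there from 284, 8 and 42 UMIs. In the resident range the APOE2 to APOE3 log2 ratios were -0.35 for Hmox1, 0.29 for Cyba and 0.54 (-0.07 to 1.19) for Txnrd1. These were within 1.5-fold, while Gpx3 was at 1.83. For APOE4 to APOE3 in the resident range, Cybb at -0.62 (-0.84 to -0.40) and Txnrd1 at 0.89 (0.22 to 1.58) were past 1.5-fold. Hmox1 at -0.33 and Cyba at 0.17 were within it. On the resident side of a split at 50%, Cybb was at -0.47, within 1.5-fold, and Txnrd1 at 1.41. The foam-range ratios of APOE2 to APOE3 were -1.32 for Hmox1, 1.15 for Cyba and 1.35 for Txnrd1, against 8 APOE3 cells. In APOE2 and APOE3, Gpx3 was found mainly in the resident range, at 90.7 and 25.5 CPM from 136 and 14 UMIs. In APOE4 it was not, with 5 UMIs there (7.35 CPM) and 6 in the cells between the ranges (9.96 CPM). The resident-range levels had the same order of libraries as in fibroblast-like cells. The APOE4 to APOE3 step of that order held too few UMIs to count as measured.

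**Figure D5:**
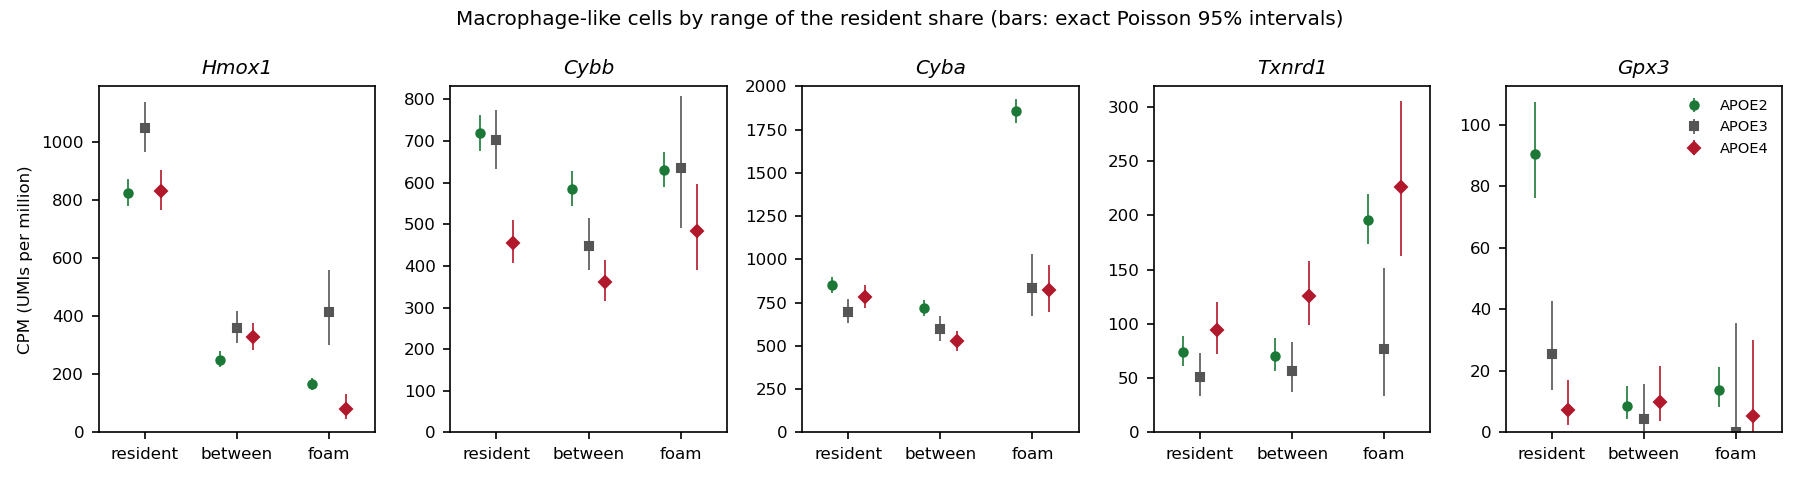
Each panel plots 1 gene in CPM on a linear y axis over the resident, between and foam ranges of macrophage-like cells, with the 3 libraries as points and exact Poisson 95% intervals as bars. Hmox1 is lower in the foam range than in the resident range in each library, and Cyba in APOE2 reaches 1858 CPM in the foam range.

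Cluster 12 and the endothelial-like cells were compared in the same way. In cluster 12, 0 of 9 measured members passed for APOE2 to APOE3, against 17.3% of all measured genes, and 4 of 9 for APOE4 to APOE3, against 11.0%. Hmox1 (-0.61, -1.04 to -0.18), Nqo1 (-0.71, -1.25 to -0.20) and Srxn1 (-0.69, -1.21 to -0.18) were lower in APOE4, from 74, 48 and 50 APOE4 UMIs. Gpx3 was higher in APOE4 (1.31, 0.65 to 2.00) but at -0.54 with equal weight per cell. Smooth muscle markers in cluster 12 summed to 20726, 32116 and 32766 CPM and fibroblast markers to 8689, 2389.5 and 2492 CPM, with 10 of 10 of each detected; their part was not tested.

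In the endothelial-like cells, 3 of 6 measured members passed for APOE2 to APOE3, against 32.4%, and 2 of 4 for APOE4 to APOE3, against 26.8%, with 33 APOE3 and 40 APOE4 cells. Sod3 was at 112, 281 and 186 CPM and Nox4 at 82.8, 156 and 117 CPM, both highest in APOE3. Smooth muscle markers had the same order, at 5482.5, 15828 and 11933 CPM with 10 of 10 detected, and so had Schwann markers, at 59.6, 979 and 533 CPM with 4, 5 and 5 of 5 detected and Sox10 at 0 in APOE2. Endothelial markers themselves summed to 4721, 1620 and 2681 CPM and lymphatic endothelial markers to 865, 52.1 and 3.65 CPM, and the part of these lists was not tested. Hmox1 was 1.67-fold higher in APOE2 (0.74, 0.00 to 1.55) from 97 and 18 UMIs, but this log2 ratio ran from 0.10 at a clustering resolution of 0.4 to 3.59 without cells holding 20 UMIs of other classes' markers. Gclm in APOE4 was at -1.15 (-2.12 to -0.27) from 14 UMIs, and at -0.26, within 1.5-fold, at a resolution of 0.4. At that resolution the endothelial-like class held 754, 234 and 181 cells. It had 4 endothelial markers raised, against 9 in the main clustering, so it was not the same set of cells.

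Around the members, 97 genes of oxidant and antioxidant pathways, the members included, were counted in the same way. In smooth muscle-like cells 8 of 81 measured genes were 1.5-fold higher in APOE2 than APOE3, against 8.10% of all measured genes, and 0 were lower, against 3.29% (median log2 ratio 0.03, against 0.04 over all measured genes). In APOE4, 5 of the 81 were higher, against 7.94%, and 1 was lower, against 3.19% (median -0.14 against -0.08). In fibroblast-like cells 5 of 79 were higher in APOE2, against 4.84%, and 1 was lower, against 6.00% (median 0.06 against -0.01). In APOE4, 3 of 78 were higher, against 5.31%, and 5 were lower, against 5.06% (median -0.12 against -0.10). In macrophage-like cells 14 of 78 were higher in APOE2, against 9.83%, and 7 were lower, against 9.28% (median 0.15 against -0.003). In APOE4, 6 of 68 were higher, against 10.7%, and 6 were lower, against 7.62% (median 0.01 against -0.005).

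The members were left out of the rankings in this paragraph and the next. Among the other pathway genes, the metallothioneins, metal-binding proteins that also scavenge oxidants, had the largest APOE2 to APOE3 ratios in smooth muscle-like cells. Mt1 was at 1534 CPM in APOE2 against 440 CPM in APOE3 (1.80), Mt2 at 227 against 61.6 CPM (1.88), and the purine oxidase gene Xdh at 1.39 against 0.46 CPM (1.6). The lowest were Poldip2, a Nox4 regulator (-0.29), the mitochondrial peroxiredoxin Prdx3 (-0.28) and Gpx8 (-0.27). In APOE4, Gclc, the catalytic partner of Gclm, was at 87.2 CPM against 41.4 CPM in APOE3 (1.07, 1.02 to 1.13), although Gclm itself was at 64.8 and 66.9 CPM. Nox1 (0.97) and Maff, a small partner of Nrf2 (0.81), were also high, while Aox1 (-0.60), Mgst1 (-0.55) and Gss (-0.47), the last enzyme of glutathione synthesis, were lowest.

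The members were left out of the rankings here too. For APOE2 to APOE3 in fibroblast-like cells, Mt2 (1.92), Ggt5 (1.71) and Mt1 (1.50) were highest. Txnip, an inhibitor of thioredoxin (-0.56), Prdx4 (-0.52) and the selenium carrier Selenop (-0.43) were lowest. For APOE4 to APOE3 in these cells, Maff (0.83), Mt1 (0.73) and Mt2 (0.68) were highest, and Gsta4 (-0.78), Sephs2 (-0.60) and Osgin1 (-0.59) lowest. In macrophage-like cells Txn1, the thioredoxin that Txnrd1 reduces, was at 436 CPM in APOE2 against 204 CPM in APOE3 (1.10), beside Gpx1 (1.04) and Mt2 (0.98). Slc40a1, encoding the iron exporter ferroportin, was at 9.22 CPM in APOE2 against 59.8 CPM in APOE3 (-2.70, -3.30 to -2.12), in the same direction as Hmox1, and Gpx8 (-1.28) and Txnip (-0.90) were next lowest. For APOE4 to APOE3, Mt2 (0.96), Maff (0.89) and Bach1, a repressor of Hmox1 (0.81), were highest, and Txnip (-1.21), Selenop (-0.63) and Cd163, the receptor for hemoglobin (-0.55), lowest. Erythroid markers summed to 1842, 14 and 118 CPM in macrophage-like cells and to 817, 10 and 334 CPM in fibroblast-like cells, and their part in these differences was not tested.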

How the data were processed

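The authors deposited, for each of the 3 pooled aorta libraries, a matrix of raw UMI counts per gene and cell barcode with its gene and barcode lists, made with Cell Ranger (version 7.0.1 per the file headers) on mm10. The counts were used as deposited, with 0 per-sample columns unused. Cells with at least 200 detected genes and under 20% mitochondrial UMIs were kept, since the limits used in the study are not given in the sources used here. The libraries were normalized with sctransform 0.4.2 and integrated with Seurat 5.3.0 (R 4.3.3) on 3000 features and 30 components, without the 10 genes and their pathway lists among the features, and clustered by the Louvain method at a resolution of 0.8. Python 3.11.15, numpy 2.4.6, scipy 1.17.1, pandas 2.3.3 and scanpy 1.11.5 were used for the counts and for Scrublet. Clusters were named from marker lists, and left unnamed where they raised markers of 2 types, were led by another type's genes, or had a low UMI depth for their library with no marker among their 10 leading genes. For the smooth muscle-like name, 8 or more of its 10 markers had to be kept as well, and 6 clusters that kept them were left unnamed by the other conditions.

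Raw UMIs of each gene were summed by class and library and divided by the summed UMIs (CPM). Intervals are exact Poisson for levels, exact binomial for shares and conditional binomial for ratios, at 95%. They cover counting error only. No test was made between genotypes because each has 1 library of pooled mice. Results were recomputed at resolutions 0.4 and 1.6, under stricter cell filters, without high Scrublet scores, without cells holding other classes' markers, with cells classed one by one, with equal weight per cell, with another scaling and cluster mix, and at 2-fold. Leaving out macrophage-like cells with high smooth muscle marker UMIs, pooling all smooth muscle marker clusters and leaving out cluster 2 were alternatives chosen after seeing the data. Only the ratio and its interval were tested on simulated data, as Poisson counts with known ratios. Cells, clustering, class naming and differences between pools were not simulated.

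The members, the pathway lists and the marker lists were chosen with earlier results of these data known. Genes named beside the members are the up to 3 pathway genes with the largest ratio in either direction, with at least 100 UMIs in both libraries together, the 3 genes with the most similar pattern, and mouse Apoe. The other oxidase subunits were named after their values were seen.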

Additional observations from a re-analysis of the deposited data

Results flagged for a closer look

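For 2 results a gene was past 1.5-fold in opposite directions in 2 cell classes under the same pair of libraries. Hmox1 for APOE2 to APOE3 had a log2 ratio of 0.74 in endothelial-like cells, from 97 and 18 UMIs, and of -0.76 in macrophage-like cells. The endothelial value ran from 0.10 to 3.59 over 9 settings. It was not past 1.5-fold at a clustering resolution of 0.4, where that class took in many more cells. Gpx3 for APOE4 to APOE3 had a log2 ratio of 1.31 in cluster 12, from 61 and 29 UMIs, and of -1.15 in fibroblast-like cells. Neither difference between classes was tested, since each genotype has 1 library, and the class with the fewer UMIs carries the wide interval in both cases.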

How the results depend on the processing

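The counts of members past 1.5-fold moved under some settings, and the cause was not tested except where the setting itself makes it. In smooth muscle-like cells APOE2 to APOE3 gave 2 (from 1) with cells classed by their own markers, with no minimum of UMIs and over all clusters that keep the smooth muscle markers, in each case by adding Cybb. APOE4 to APOE3 gave 2 (from 0), Cybb and Gpx3 lower, with cells classed by their own markers and over all such clusters. In fibroblast-like cells APOE2 to APOE3 gave 3 with the mean of each cell's CPM, 0 with the same cluster mix, 2 with no minimum and 0 at 2-fold, and APOE4 to APOE3 gave 2 with scaling by the median gene, which added Txnrd1, and 2 with no minimum. In macrophage-like cells APOE2 to APOE3 gave 3 (from 5) with the mean of each cell's CPM, where Hmox1 and Gclm were lower and Srxn1 higher, and 2 at 2-fold. APOE4 to APOE3 gave 2 (from 1) without the highest Scrublet scores, 2 at resolution 0.4 and 4 with no minimum.

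Shares without thinning were 60.1%, 61.6% and 60.0% for Hmox1 and 84.3%, 77.6% and 72.9% for Cybb in macrophage-like cells. The Hmox1 ratio of APOE4 to APOE3 in foam-range cells was -2.36, and -1.10 when the resident share was split at 50%. The sign reversed in endothelial-like cells for Nox4 (0.79 without cells holding 20 UMIs of other markers) and Sod3 (0.34 at resolution 0.4) in APOE2 to APOE3. Ratios within 1.5-fold also changed sign there, for example Cyba for APOE2 to APOE3 from 0.36 to -0.10 with cells classed one by one and -0.05 with equal weight per cell, and Nox4 for APOE4 to APOE3 from -0.42 to 0.52 without cells holding other markers. For APOE4 to APOE2 it reversed there for Hmox1 (1.15 at resolution 1.6, 1.50 with cells classed one by one), Txnrd1 (0.064 at resolution 0.4, 0.23 with equal weight per cell) and Sod3 (-0.41 at resolution 0.4, -0.080 at 1.6). The endothelial-like class at resolution 0.4 held 754, 234 and 181 cells, more than in the main clustering, with fewer endothelial markers raised. Gpx3 in cluster 12 for APOE4 to APOE3 became -0.54 with equal weight per cell.

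Over all settings run, Hmox1 in macrophage-like cells ranged from -0.87 to -0.57 for APOE2 to APOE3, Cyba from 0.43 to 0.83 and Txnrd1 from 0.46 to 1.15. Gpx3 in fibroblast-like cells ranged from 0.36 to 0.71 for APOE2 and from -1.18 to -1.04 for APOE4, and in smooth muscle-like cells from 1.38 to 3.47 for APOE2. Nox4 in macrophage-like cells ranged from -1.31 to 2.13 for APOE2 to APOE3 and was not stable. The median gene shifted by -0.11 in fibroblast-like cells (APOE4 to APOE3), -0.12 in endothelial-like cells (APOE2 to APOE3) and -0.11 in smooth muscle-like cells (APOE4 to APOE2). In smooth muscle-like cells it shifted by -0.093 for APOE4 to APOE3, near the size of the Cyba ratio there. No paired analysis was possible because each genotype has 1 library and the labels give no replicate numbers, and no library could be left out for the same reason.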

Other observations

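Nfe2l2, which encodes Nrf2, was at 105, 94.3 and 120 CPM in smooth muscle-like cells, and Keap1, its inhibitor, at 54.7, 62.1 and 50.02 CPM. In APOE4 to APOE3 the log2 ratios were 0.35 (0.31 to 0.39) for Nfe2l2 and -0.31 (-0.37 to -0.26) for Keap1, while Gclm was at -0.05 and Gclc at 1.07. Of the other Nrf2 targets among the members, Srxn1 and Nqo1 were lower in APOE4 and Hmox1 and Txnrd1 higher, all within 1.5-fold. Nfe2l2 and Keap1 were chosen after their values were seen, and their part in the levels of these targets was not tested.

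Sod1, the cytosolic superoxide dismutase, was at 128 and 107 CPM in the APOE2 and APOE3 smooth muscle-like cells (0.26, 0.23 to 0.30), where Sod3 was at 533 and 720.0 CPM (-0.43). Catalase was at 24.1 and 25.2 CPM (-0.06, -0.14 to 0.02). These genes too were chosen after their values were seen.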
